A study of Mus musculus with 89 samples.

Results

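Copper oxide nanomaterial with a polyethylene glycol shell (CuO PEG, 40 μg per mouse) was compared with uncoated core CuO (10 μg per mouse). The mass doses differed, while the copper they held was roughly similar by the study's measurements of the powders. The comparison held 3 CuO PEG 40 samples and 3 CuO 10 samples, 6 of the 89 samples of the series, chosen from their labels alone. By the study's characterisation the coated material holds less copper per mass. The larger mass of CuO PEG was thus taken to carry more copper than the smaller mass of CuO, of a similar order. Copper in the lung is not reported, and the paper states that equal molar copper doses could not be calculated. The mice of every group, controls included, were female BALB/c animals of 6 to 8 weeks sensitized intraperitoneally to ovalbumin (OVA) with Alum. The animals of the 6 samples then received their particles in PBS, without OVA, by oropharyngeal aspiration on 4 consecutive days, and the lungs were taken the day after the last dose. The 7 PBS control samples had the same sensitization and vehicle but no particles, and the OVA-challenged counterparts (3 CuO PEG 40 + OVA, 3 CuO 10 + OVA, 8 OVA controls) received OVA with the aspirate. The RNA on each channel was pooled from 2 extracts. CuO PEG came as an aqueous suspension and CuO as a powder, so coating and form of supply cannot be told apart. The series also held CuO COOH and CuO NH3 and a dose of 2.5 μg.

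Lung RNA was measured on 2-colour whole-genome arrays, with 22911 genes named. Core CuO lay on slides 1 to 3 and CuO PEG on slides 4 to 6, which were scanned at another time, so no slide held both compared groups, no within-slide value of the comparison exists, and the contrast passed through PBS and OVA controls present on both slide sets. The CuO PEG 40 samples were dimmer, with a median foreground of 60 to 71 intensity units against 100.5 to 170 in CuO 10, and with 51.1% to 60.2% of probes well above background against 61.9% to 62.7%. Values are log2 intensities with the effects of dye, slide and array position removed, and differences are CuO PEG 40 minus CuO 10 in log2 units with their standard error (SE). A gene was called when limma's Benjamini-Hochberg adjusted p was below 0.05 and the log2 fold change exceeded 0.58 in size. The lung markers were bright in the 6 samples, surfactant protein gene Sftpc at 17.56 to 18.04, the club cell secretory gene Scgb1a1 at 16.95 to 17.68 and the alveolar type 1 gene Ager at 14.31 to 14.65. No pair of the 89 samples had identical values, the highest correlation being 0.9976.

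Copper that enters cells is bound by metallothioneins, small cysteine-rich proteins whose genes are switched on by the metal-sensing factor MTF1. Proteins damaged by metals or oxidants call up the heat shock response, in which HSF1 drives chaperones such as HSP70 and their partners of the DNAJ and BAG families. In the airway, ciliated cells, whose programme depends on the factor FOXJ1, sweep the mucus made by secretory cells, and inhaled metal oxide particles are known to draw neutrophils and monocytes into the lung through chemokines.

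The promoter of Hspa1a, the inducible HSP70 gene with one of the largest differences, and those of the metallothionein genes Mt1 and Mt2 are shown because these are the textbook HSF1 and MTF1 targets among the genes described here. They are the 250 bases before the transcription start in RefSeq (build GRCm38.p6), read 5′ to 3′. Capitals mark matches to GAANNTTC (heat shock element) in Hspa1a and to TGCNCNC (metal response element) in Mt1 and Mt2, both strands searched.
Hspa1a (chr17:34972157-34972406, minus strand): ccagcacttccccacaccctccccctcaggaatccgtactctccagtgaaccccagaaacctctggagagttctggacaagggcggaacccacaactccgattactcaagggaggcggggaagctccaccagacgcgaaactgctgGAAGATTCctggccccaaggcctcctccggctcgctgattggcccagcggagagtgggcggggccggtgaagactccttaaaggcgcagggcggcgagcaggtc
Mt1 (chr8:94178839-94179088, plus strand): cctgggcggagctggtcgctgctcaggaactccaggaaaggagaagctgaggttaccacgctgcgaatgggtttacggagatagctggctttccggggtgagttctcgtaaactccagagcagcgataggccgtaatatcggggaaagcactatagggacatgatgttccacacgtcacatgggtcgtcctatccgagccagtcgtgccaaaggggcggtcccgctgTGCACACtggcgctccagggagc
Mt2 (chr8:94172368-94172617, plus strand): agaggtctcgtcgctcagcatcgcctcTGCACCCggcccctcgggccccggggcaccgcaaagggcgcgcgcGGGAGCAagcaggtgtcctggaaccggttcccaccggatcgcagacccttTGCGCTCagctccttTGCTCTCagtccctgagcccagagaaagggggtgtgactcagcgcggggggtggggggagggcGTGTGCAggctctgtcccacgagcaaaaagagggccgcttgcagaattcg
The heat shock element letters stood 104 bases before the start of Hspa1a and at the same distance in the near-identical Hspa1b, and 6.69% of 32851 mouse promoter windows of this length held them. The 14 heat shock genes with a window included 6 with a match, while neither window of Dnajb1 and no window of Bag3 or Chordc1 held these letters. Mt2 held 5 matches to the metal response element and Mt1 held 1, a short pattern found in 44.4% of all windows. Bases outside these windows, those after the annotated start included, were not searched. The counts are therefore not of all elements of a gene. No marked match overlapped a match to another of the motifs searched, which also included the antioxidant response and NF-kB elements.

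In the fit with dye, slide and array position, the lungs exposed to CuO PEG 40 and to CuO 10 differed in few genes. Nearly all of them were lower after CuO PEG 40. Of 22911 genes, 29 were called (0.127%), 28 lower in CuO PEG 40 (0.122%) and 1 higher (0.00436%), and 1633 had an unadjusted p below 0.05. The called genes were led by the HSP40 co-chaperone Dnajb1 and included the ciliated cell regulator Foxj1 and axonemal genes, and the gene that was higher was Lss, the sterol synthesis enzyme lanosterol synthase. In each of the 29 the 3 samples of CuO PEG 40 lay entirely on one side of the 3 of CuO 10 after the batch terms were removed, as did 23% of all genes. Before removal they did so in 26, values that still hold the difference between slide sets, and the share of all genes was not counted there. Against the PBS controls, 28 of the 28 genes lower in CuO PEG 40 had values above 0 in CuO 10. Of these 14 were called higher, as were 2.65% of all genes. In CuO PEG 40, 23 had values below 0 and 0 were called lower, where 0.751% of all genes were. The 28 were chosen by their difference between these same samples, which in part fixes these signs, and the signs of all genes were not counted. The groups are small and bridged by controls. The count of 29 became 100 without CuO 10 replicate 1 and 1 to 5 without any other of the 6 samples. It became 0 with hybridisation in place of slide or with the replicate number as a block. It was also 0 with each group set against the controls of its own slides. With ComBat, the study's batch method, for dye and array it was 910, of which 313 were higher and 597 lower. With dye as the batch term alone it was 802, of which 287 were higher and 515 lower.

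**Figure D1:**
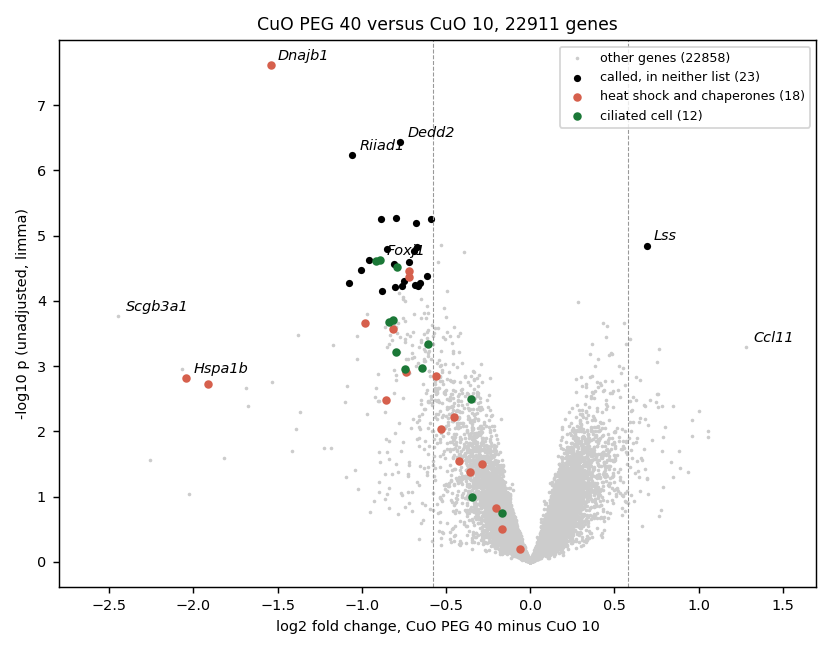
Each point is a gene, placed by its log2 fold change (CuO PEG 40 minus CuO 10, horizontal axis) and its unadjusted limma p as -log10 (vertical axis), with heat shock and ciliated cell list members coloured and dashed lines at a log2 fold change of 0.58 in size. Dnajb1 stands highest at a log2 fold change of -1.54, and Lss is the called gene on the right.

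Heat shock and chaperone genes and ciliated cell genes were the gene lists with the most members called between the exposures, 3 each. Of 18 measured heat shock members 3 were lower in CuO PEG 40 and 0 higher, where 0.122% of all genes were lower and 0.00436% higher. The list's median difference was -0.64 against 0.0079 over all genes, with 18 of 18 values below 0. Against PBS, 14 of 18 rose in CuO 10 with a list median of 0.77, where 2.65% of all genes rose, and 1 of 18 rose in CuO PEG 40 with a list median of 0.27, where 2.3% of all genes rose. The comparisons with PBS share their controls. The members called lower numbered 6 without CuO 10 replicate 1, 1 without any other of the 6 samples or without PBS replicate 3 or OVA replicate 3, 4 or 6, and the list median stayed between -0.84 and -0.51 in these refits.

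Dnajb1, whose protein delivers clients to HSP70 and stimulates its ATPase, measured 13.58, 13.85 and 13.81 in CuO 10 and 12.37, 12.02 and 12.21 in CuO PEG 40, with PBS controls between 12.45 and 12.94 (median 12.72). The 3 CuO 10 samples were above every control and the 3 CuO PEG 40 samples below every control. The difference was -1.54 (SE 0.24, limma adjusted p = 0.000559, a 2.91-fold lower level), and it stayed called without any single compared sample or control. Chordc1, an HSP90-binding co-chaperone, measured 9.12, 9.41 and 9.56 in CuO 10 and 8.60, 8.49 and 8.84 in CuO PEG 40, a difference of -0.72 (SE 0.16, limma adjusted p = 0.0359). Bag3, the HSP70 nucleotide exchange factor that routes damaged proteins to autophagy, measured 12.03, 12.14 and 12.48 in CuO 10 and 11.65, 11.56 and 11.28 in CuO PEG 40, a difference of -0.72 (SE 0.16, limma adjusted p = 0.0405). For both genes the CuO PEG 40 samples overlapped the PBS range or lay just beside it, and the CuO 10 samples lay above it.

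The inducible HSP70 genes had larger differences that did not pass the test, and they are named here after their values were seen. Hspa1a measured 12.80, 13.36 and 13.88 in CuO 10, 11.59, 11.08 and 11.63 in CuO PEG 40 and 9.40 to 11.38 in the PBS controls. It rose against PBS in both groups, by 3.24 in CuO 10 and 1.32 in CuO PEG 40, and the difference between the groups was -1.91 (SE 0.59, limma adjusted p = 0.208, 95% interval -3.09 to -0.74). Hspa1b gave -2.04 (SE 0.61, limma adjusted p = 0.193). Each of the pair was read by 1 probe, and as near-identical copies they may share signal. Hsph1 (HSP110) at -0.98, Hsp90aa1 at -0.81 and the constitutive HSP70 gene Hspa8 at -0.74 had adjusted p of 0.0883, 0.0922 and 0.176. At the other end, the mitochondrial chaperone Hspd1 at -0.20 and the endoplasmic reticulum chaperone Hspa5 at -0.17 differed least among members that had risen in CuO 10.

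The level in the other dose groups did not follow mass. Dnajb1 averaged 13.29 in CuO PEG 10 and 12.70 in CuO 40, so each material had a higher value at 10 than at 40 μg. Bag3 averaged 12.00 in CuO PEG 10 and 11.80 in CuO 40, and Chordc1 9.15 and 8.87, in the same order. Hspa1a averaged 12.17 in CuO PEG 10, above CuO PEG 40 as in the other genes, but its 13.74 in CuO 40 was above CuO 10. These groups differ in copper as well as mass and were not tested.

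**Figure D2:**
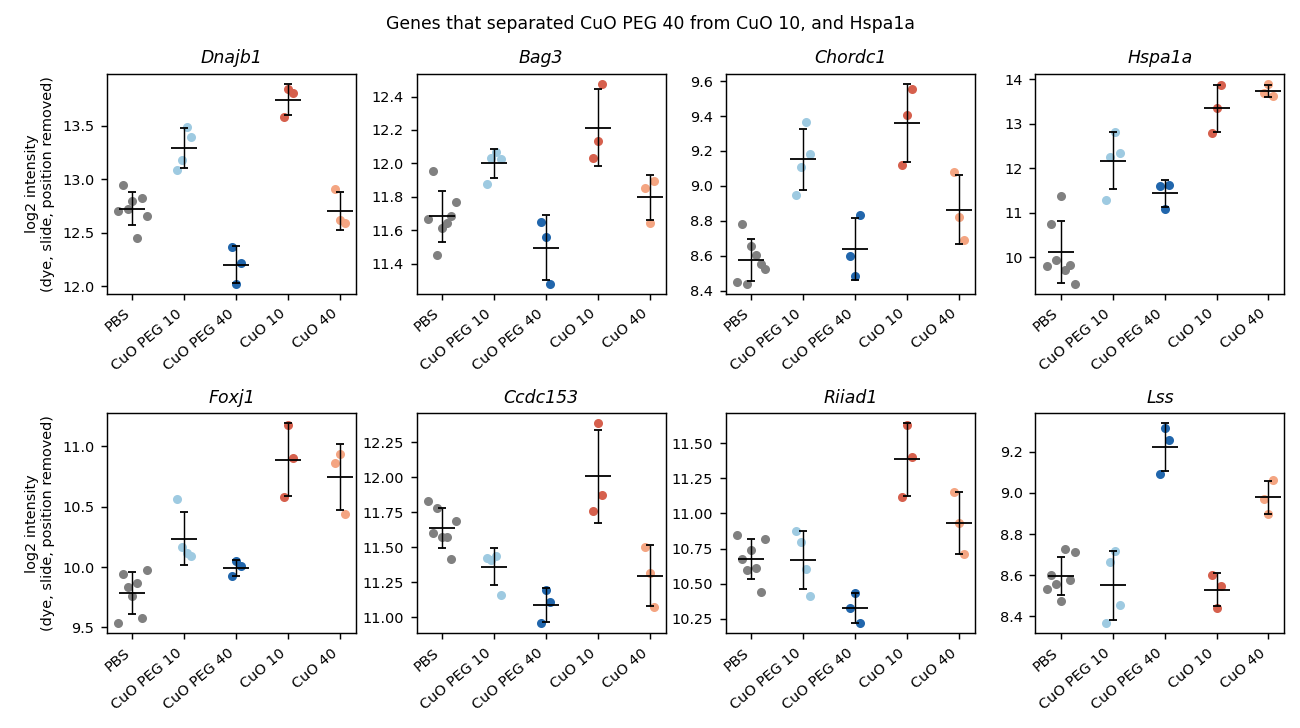
Log2 intensity with dye, slide and position removed (vertical axes) of 8 genes in every PBS, CuO PEG 10, CuO PEG 40, CuO 10 and CuO 40 sample, with bars for the mean and SD. In Dnajb1 the 3 CuO PEG 40 samples (12.02 to 12.37) lie below and the 3 CuO 10 samples (13.58 to 13.85) above the controls, and in Lss the CuO PEG 40 samples (9.09 to 9.31) lie above both.

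Ciliated cell genes formed the other group. Of 12 measured markers 3 were lower in CuO PEG 40 and 0 higher, where 0.122% of all genes were lower and 0.00436% higher. The median difference was -0.77, and 12 of 12 values were below 0. Foxj1, the master regulator of motile cilia, measured 10.58, 11.18 and 10.91 in CuO 10 and 9.92, 10.05 and 10.01 in CuO PEG 40, with PBS controls at 9.54 to 9.98 (median 9.84). CuO PEG 40 lay at the top edge of the controls and CuO 10 above them, a difference of -0.89 (SE 0.19, limma adjusted p = 0.0329). Ccdc153, a coiled-coil gene of ciliated cells, measured 11.76, 12.39 and 11.88 in CuO 10 and 10.96, 11.20 and 11.11 in CuO PEG 40, where the controls spanned 11.41 to 11.83. Here the CuO PEG 40 samples were below all controls, and the difference was -0.92 (SE 0.20, limma adjusted p = 0.0329). The third, Ccdc113, differed by -0.79 (SE 0.17, limma adjusted p = 0.0350). The outer dynein arm heavy chain gene Dnah5, at -0.84, and the radial spoke gene Rsph1, at -0.81, had adjusted p of 0.0883 for both and did not pass.

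Against PBS, 3 of the 12 markers rose in CuO 10 (Foxj1 by 1.1, Rsph1 by 0.76 and Tekt1, a filament protein of the axoneme, by 0.66) and 0 fell. In CuO PEG 40, 0 rose and 2 fell (Tppp3 and Tmem212, by 0.91 and 0.70). Of all genes 2.65% rose and 1.01% fell in CuO 10, and 2.3% rose and 0.751% fell in CuO PEG 40. Lower RNA of a cell type in whole lung can come from fewer of its cells or from less RNA per cell, which cannot be told apart here. The mean log2 level of the 12 markers was 10.00 to 10.32 over the CuO 10 samples, 9.43 to 9.56 over the CuO PEG 40 samples and 9.62 to 9.90 over the controls. Spag6 was not well above background in any of the 6 samples and the other 11 markers were in all of them.

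Several called genes outside the marker list are known parts of motile cilia or flagella. The inner arm dynein heavy chain genes Dnah10 and Dnah6 differed by -0.88 and -0.69, and Mns1, a filament gene needed for cilia and sperm tails, by -0.85. Cfap45 and Cfap44, genes of cilia- and flagella-associated proteins, differed by -0.81 and -0.66, and Nme5, a radial spoke gene, by -0.81. Riiad1, whose protein carries a regulatory-subunit dimerisation domain, measured 11.12, 11.63 and 11.40 in CuO 10 and 10.33, 10.43 and 10.22 in CuO PEG 40, a difference of -1.06 (SE 0.19, limma adjusted p = 0.00445). Its controls spanned 10.44 to 10.84, so CuO PEG 40 lay below them and CuO 10 above. Lrrc51, Lrrc43, Ak9, Spaca9 and Zmynd12 differed by -0.89, -0.68, -0.69, -0.65 and -0.61. AU040972, an expressed-sequence symbol not counted as a cilia gene here, differed by -0.95. The ciliated markers called lower numbered 5 without CuO 10 replicate 1, 0 without any other of the 6 samples or without OVA replicate 3, 4 or 6, and 2 without PBS replicate 3 or 7, and the median over the list stayed between -0.84 and -0.61 whichever sample was left out.

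**Figure D3:**
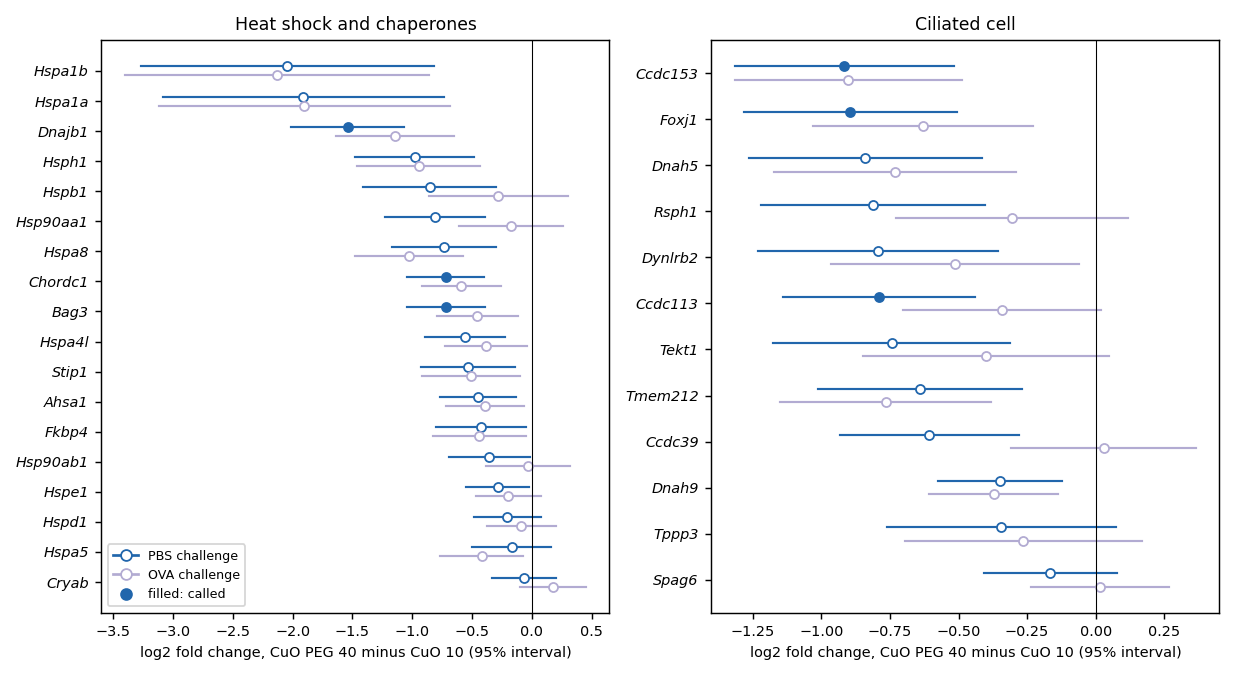
Log2 fold change of CuO PEG 40 minus CuO 10 with its 95% interval (horizontal axis) for the 18 heat shock and 12 ciliated cell genes, in PBS-challenged mice (blue) and OVA-challenged mice (lilac), with filled points for called genes. Every PBS-challenge point lies below 0, and Dnajb1, Chordc1, Bag3, Ccdc153, Foxj1 and Ccdc113 are filled.

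The remaining called genes were of varied kinds. Dedd2, a death effector domain gene, differed by -0.77 (SE 0.13, limma adjusted p = 0.00420), with 12.33, 12.54 and 12.62 in CuO 10, 11.69, 11.62 and 11.87 in CuO PEG 40 and controls at 11.68 to 12.03. The CuO PEG 40 samples thus reached from the lower end of the controls into their range, and CuO 10 lay above them. P4ha1, a subunit of the collagen prolyl hydroxylase, differed by -0.67, Itpka, an inositol trisphosphate kinase gene, by -0.75, Acbd7, an acyl-CoA binding protein gene, by -0.76, and Naa16, an auxiliary subunit of an N-terminal acetyltransferase, by -0.59. Of the 29, 3 were symbols ending in Rik, all lower. Acbd7 and Ak9 were well above background in 2 of 3 CuO PEG 40 samples and the other 27 in all 6 samples.

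Lss measured 8.60, 8.44 and 8.55 in CuO 10 and 9.09, 9.31 and 9.26 in CuO PEG 40, against controls at 8.47 to 8.73. The 3 CuO PEG 40 samples exceeded every control and the CuO 10 samples straddled the lower end of their range. The difference was 0.69 (SE 0.15, limma adjusted p = 0.0310). Of 18 genes of cholesterol synthesis and uptake 1 was higher and 0 lower between the groups, with a median of 0.19. Against PBS, 5 of 18 rose in CuO PEG 40 (Idi1 by 0.90, Fdps by 0.80, Mvd by 0.63, Lss by 0.62 and Sqle by 0.62), and 0 rose in CuO 10. Of all genes 2.3% and 2.65% rose. Idi1, the isopentenyl diphosphate isomerase, differed between the groups by 0.77 (SE 0.21, limma adjusted p = 0.119) and did not pass.

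Plet1, a surface protein gene that was 1 of 23 alveolar macrophage markers, was the called member of that list, with 10.19, 10.12 and 9.97 in CuO 10 and 9.35, 9.35 and 9.21 in CuO PEG 40, and controls at 9.64 to 9.89. The particle groups lay on opposite sides of the controls, with a difference of -0.79 (SE 0.16, limma adjusted p = 0.0211). The list's median difference was -0.48. Against PBS 6 of 23 markers fell and 3 rose in CuO 10, and 12 fell and 2 rose in CuO PEG 40, where 1.01% and 0.751% of all genes fell. The eosinophil-associated ribonuclease gene Ear2, an abundant alveolar macrophage transcript in mouse lung, fell by 1.33 in CuO 10 and fell by 2.05 in CuO PEG 40, and Cidec, a lipid droplet protein gene, fell by 0.79 and 1.88. The scavenger receptor gene Marco differed by -1.54 between the groups (SE 0.47, limma adjusted p = 0.201) and Chil3, a chitinase-like lectin gene, by -1.68 (SE 0.56, limma adjusted p = 0.287). Neither passed.

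Airway secretory genes had wide values that did not pass. Scgb3a1, a secretoglobin of airway secretory cells, gave -2.45, the largest difference in size among the genes described (SE 0.61, limma adjusted p = 0.0849), with 14.14, 15.50 and 14.60 in CuO 10 and 12.09, 12.82 and 11.99 in CuO PEG 40. Its PBS controls ranged from 12.71 to 14.37, overlapping both groups. The mucin gene Muc5b gave -1.36 (SE 0.47, limma adjusted p = 0.315), with 11.01 to 12.24 in CuO 10 and 10.14 to 10.48 in CuO PEG 40, and Muc5ac gave -0.84 (SE 0.58, limma adjusted p = 0.884). Bpifb1, an airway secreted lipid-binding protein gene, gave -1.09, and Scgb1a1 gave 0.12 (95% interval -0.47 to 0.70). Of 8 club cell markers 0 were called between the groups, and the mean log2 level of the list was 14.29 to 15.04 in CuO 10, 13.93 to 14.20 in CuO PEG 40 and 14.16 to 15.09 in the controls. Against PBS 2 of the 8 fell in CuO PEG 40 and 0 in CuO 10, where 0.751% and 1.01% of all genes fell. The part of these airway markers in the ciliated result was not tested. The mean log2 level of the cardiac muscle list was 9.06 to 10.49 in CuO 10, 9.01 to 10.25 in CuO PEG 40 and 9.37 to 11.70 in the controls. For the adipose list it was 7.17 to 7.66, 6.62 to 7.19 and 6.86 to 8.05, with 2 of 7 members well above background in all 6 samples. Between the groups 0 of 8 and 0 of 7 were called. Against PBS, 4 of the 8 cardiac and 2 of the 7 adipose markers fell in CuO PEG 40 and 0 of either in CuO 10, beside the same 0.751% and 1.01% of all genes. Their part in the results was not tested.

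The inflammatory and proliferative responses were raised by both exposures, and no member of their lists was called between them. Against PBS, 607 genes rose and 231 fell in CuO 10 (3.66% called), and 526 rose and 172 fell in CuO PEG 40 (3.05% called). As shares of all genes, 2.65% rose and 1.01% fell in CuO 10, and 2.3% rose and 0.751% fell in CuO PEG 40. The list counts against PBS from here on stand beside these shares. Of 20 acute phase genes 15 rose in CuO 10 and 13 in CuO PEG 40, with medians of 1.5 and 0.88. Saa3, the serum amyloid gene of lung epithelium and macrophages, measured 15.02, 15.71 and 15.50 in CuO 10, 15.34, 14.32 and 15.16 in CuO PEG 40 and 10.02 to 12.41 in the controls. Both groups lay far above the controls and overlapped each other, and their difference was -0.47 (SE 0.71, 95% interval -1.89 to 0.94), an interval that leaves room for a sizeable difference either way.

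Of 12 neutrophil attractants and growth factors 6 rose in CuO 10 and 5 in CuO PEG 40. The CXCR2 ligand Cxcl5 measured 9.65, 9.65 and 9.70 in CuO 10 and 9.34, 10.26 and 9.73 in CuO PEG 40, with controls at 5.64 to 7.52, a difference of 0.11 (95% interval -1.16 to 1.38). Of 12 monocyte chemokines and receptors 8 and 9 rose. Ccl2, which recruits monocytes through CCR2, measured 11.37, 11.79 and 12.11 in CuO 10, 12.43, 12.58 and 12.61 in CuO PEG 40 and 7.94 to 9.75 in the controls. The groups did not overlap, yet the difference of 0.78 (SE 0.55, limma adjusted p = 0.890) did not pass. Ccl7 gave 0.76 (SE 0.59) and Ccl17 0.62 (SE 0.30), both raised against PBS in each group.

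Mitosis genes rose in 25 of 25 cases in CuO 10 and in 25 of 25 in CuO PEG 40, with medians of 1.46 and 1.43, and DNA replication genes in 12 and 13 of 16. The proliferation marker Mki67 averaged 11.04 ± 0.061 in CuO 10 and 11.01 ± 0.14 in CuO PEG 40 (SD, n = 3 each), with 10.85, 11.08 and 11.11 in the latter, against 8.73 to 9.62 in the controls, and its difference of -0.02 had a 95% interval of -0.46 to 0.42. Timp1, the metalloproteinase inhibitor, rose by 2.33 and 2.75. Erythrocyte markers fell in 5 and 6 of 9 cases, with medians of -0.88 in both groups.

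**Figure D4:**
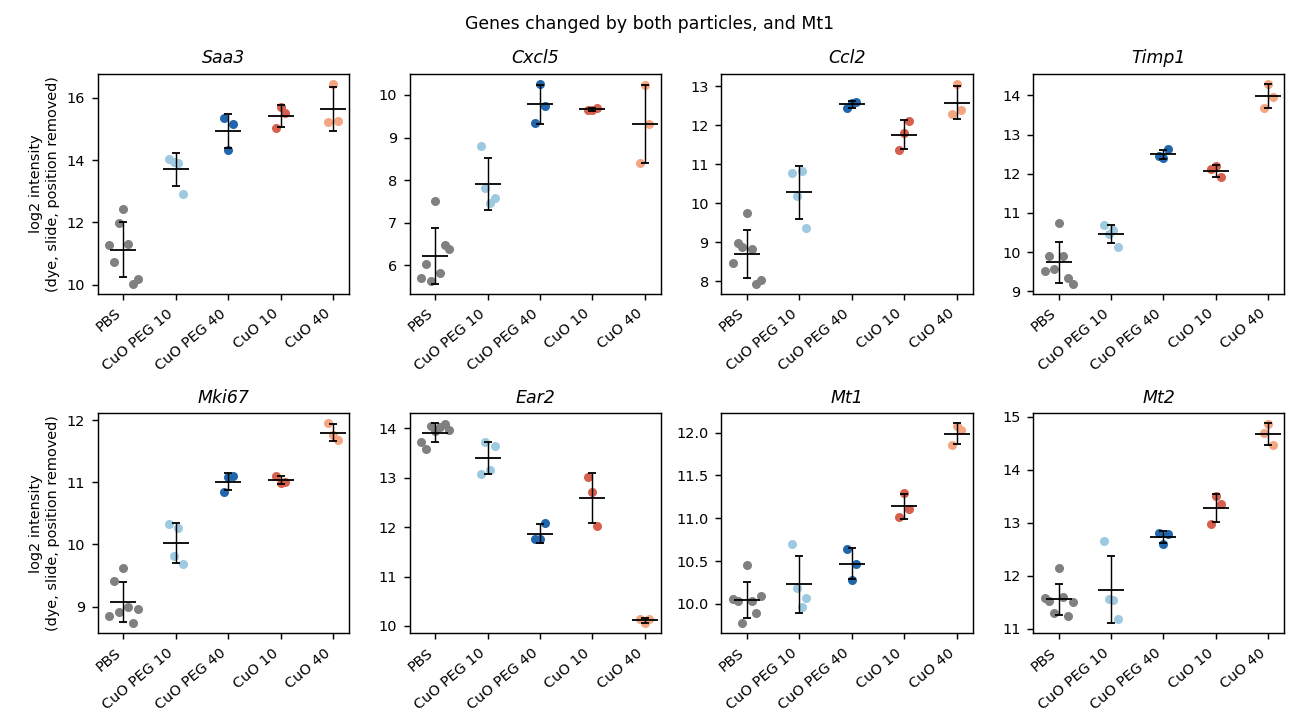
Log2 intensity with dye, slide and position removed (vertical axes) of 8 genes in every sample of 5 groups, with bars for the mean and SD. For Mki67, CuO 10 (mean 11.04) and CuO PEG 40 (mean 11.01) overlap far above the controls, and Mt1 and Mt2 reach their highest values in CuO 40.

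Metallothionein genes, which metals induce, were higher in CuO 10 by values that did not pass. Mt1 measured 11.01, 11.29 and 11.11 in CuO 10, 10.65, 10.29 and 10.47 in CuO PEG 40 and 9.78 to 10.45 in the controls. The groups did not overlap, and CuO PEG 40 reached into the control range. The difference was -0.67 (SE 0.24, limma adjusted p = 0.374, 95% interval -1.16 to -0.19), and Mt1 rose against PBS in CuO 10 (by 1.09) while the 0.42 of CuO PEG 40 did not pass. Mt2 rose by 1.72 in CuO 10 and 1.17 in CuO PEG 40, a difference of -0.55 (SE 0.36, limma adjusted p = 0.854). Of 21 metal handling genes 6 rose in CuO 10 and 3 in CuO PEG 40, 0 were called between the groups, and the median difference was -0.06. The metalloreductase gene Steap4 rose by 1.42 and 1.57, and the zinc importer gene Slc39a14 by 0.74 and 0.66. Of 24 Nrf2 targets 4 rose and 2 fell in CuO 10, 3 rose and 2 fell in CuO PEG 40, and 0 were called between the groups. The haem oxygenase gene Hmox1 rose by 2.11 and 1.35, a difference of -0.76 (SE 0.44, limma adjusted p = 0.804).

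Immune cell lists other than macrophages held no called gene between the groups. B cell markers had a median difference of 0.57, with 0 of 12 values below 0. Against PBS, 5 of 12 fell and 0 rose in CuO 10, while 0 fell and 1 rose in CuO PEG 40. NK cell markers had a median difference of 0.39, with 0 of 10 values below 0 and 4 of 10 falling in CuO 10 and 0 in CuO PEG 40. The mean log2 level of the B cell list was 7.78 to 7.98 in CuO 10, 8.30 to 8.60 in CuO PEG 40 and 8.07 to 8.85 in the controls. The CuO 10 samples thus lay below every control and every CuO PEG 40 sample, but no single gene passed in the direct contrast, where the smallest adjusted p was 0.463 in the B cell list and 0.259 in the NK cell list, which does not show that the falls were alike. Of 22 neutrophil markers 7 rose and 1 fell in CuO 10, and 4 rose and 2 fell in CuO PEG 40, with 0 called between them. Of 20 interferon response genes 7 and 2 rose, with a median difference of -0.27 and a smallest adjusted p of 0.539.

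Among the Th2 genes, the eotaxin gene Ccl11 measured 6.41, 6.70 and 6.23 in CuO 10 and 7.86, 7.60 and 7.73 in CuO PEG 40, with controls at 6.81 to 7.37 between them. Its difference of 1.28 (SE 0.35, limma adjusted p = 0.112) was the largest positive value among the named genes and did not pass, and it turned to -0.20 with dye as the batch term alone. The alarmin gene Il33 rose by 1.11 and 0.93, a difference of -0.18, and Tnf by 0.67 and 0.65. Ccl24 gave 0.32 (SE 0.46) and Il4 0.43 (SE 0.30). Il13 was not well above background in any of the 6 samples, and no level is given.

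**Figure D5:**
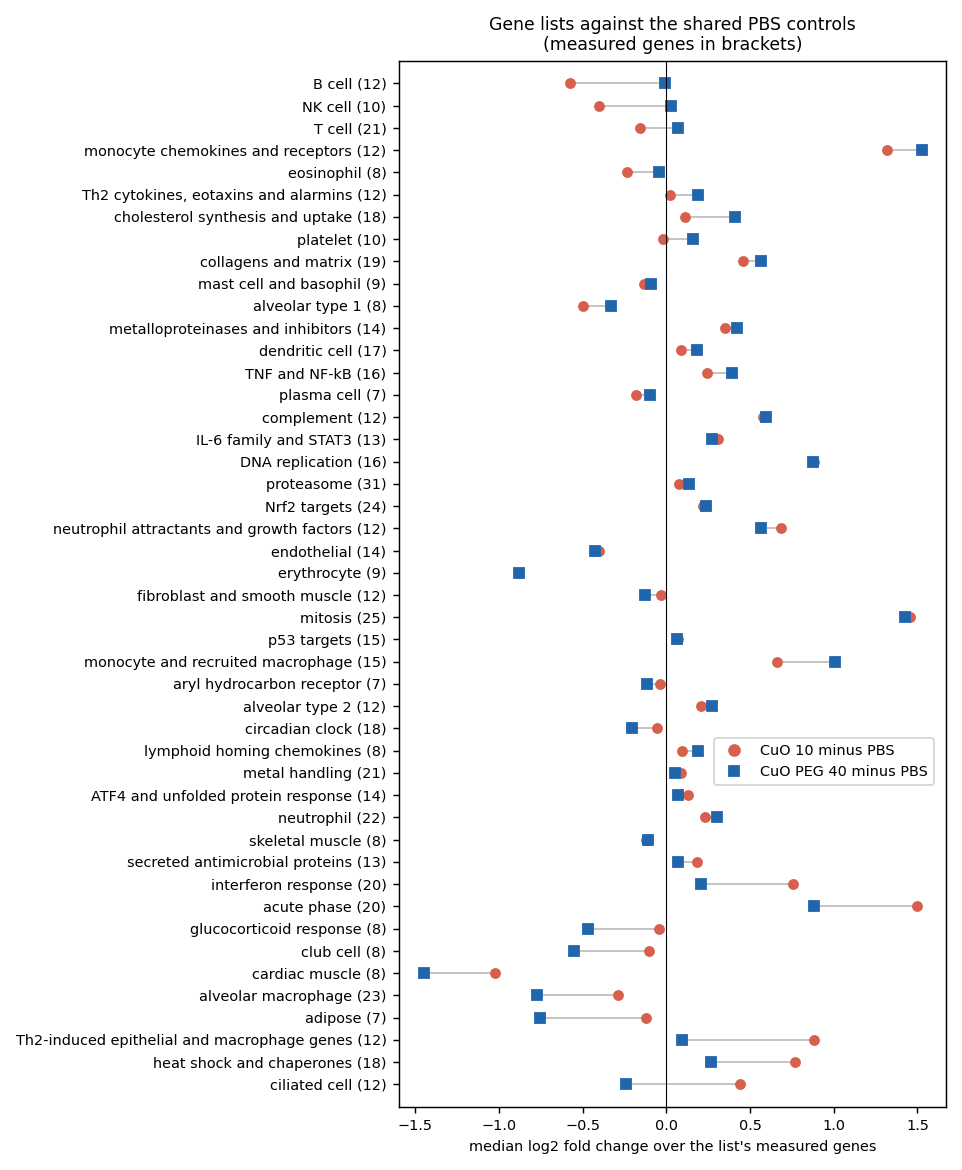
Median log2 fold change over each gene list (horizontal axis) in CuO 10 (circles) and CuO PEG 40 (squares) against the same PBS controls, with lists ordered by the median of CuO PEG 40 minus CuO 10. The ciliated cell list (0.44 and -0.24) and the heat shock list (0.77 and 0.27) stand at the bottom, and the mitosis list (1.46 and 1.43) shows nearly no gap.

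In OVA-challenged mice, which were other animals on the same slide sets, 1 gene was called (0.00436%), Spdef, the transcription factor of goblet cell differentiation, and 1456 had an unadjusted p below 0.05. Spdef, named after its values were seen, measured 11.09, 10.78 and 10.89 in CuO 10 + OVA, 9.26, 8.95 and 9.55 in CuO PEG 40 + OVA and 9.99 to 10.64 in the OVA controls. The CuO samples lay above and the CuO PEG samples below the controls, with a difference of -1.67 (SE 0.29, limma adjusted p = 0.00973), where in PBS-challenged mice it was -0.61 (SE 0.28, limma adjusted p = 0.633). The count was 0 without CuO 10 + OVA replicate 1, CuO PEG 40 + OVA replicate 2 or PBS replicate 3, and 6 or 7 without CuO PEG 40 + OVA replicate 3 or CuO 10 + OVA replicate 2. Dnajb1 measured 13.40, 13.02 and 13.34 in CuO 10 + OVA and 12.13, 12.26 and 11.95 in CuO PEG 40 + OVA, groups that did not overlap, and its difference of -1.14 (SE 0.25, limma adjusted p = 0.0867) did not pass. The heat shock list had a median of -0.43 and the ciliated list of -0.39, and other lists lay further below 0. The Th2-induced epithelial and macrophage list, which held the called gene, had -1.52 (11 of 12 values below 0), against -0.57 in PBS-challenged mice. Cardiac muscle had -1.10, adipose -0.94, erythrocyte -0.63 and club cell markers -0.44. Of the 28 genes lower in PBS-challenged mice, 28 had values below 0. Both contrasts shared 1 fit and its slide terms, so this is not independent support, and the share of all genes below 0 was not counted. When the contrast was compared between OVA and PBS challenge, limma called 0 genes, and 742 had an unadjusted p below 0.05.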

How the data were processed

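Whole-lung RNA of 89 samples in 26 groups was hybridised on 46 2-colour Agilent arrays on 6 slides. The authors deposited scanner files of raw intensity values (Feature Extraction 12.0.2.2 per the file headers) and a table of log2 values that were quantile normalized; the scanner intensities were used. Median foreground without background subtraction was taken to log2, control and outlier-flagged spots were left out, samples were quantile normalized as in the study's methods, and probes were averaged to 22911 genes by RefSeq accession (32994 of 56605 probes matched, 23611 did not). All 89 samples were fitted with limma 3.58.1 (R 4.3.3) on group, dye, slide and array position, leaving 50 residual degrees of freedom. The fit was tested on simulated data. Quantile normalization and the fit assume that most genes are alike between samples, and the number of arrays limits precision. P-values measure the spread between these pooled samples, which may be in part technical.

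Named genes were the called genes with the largest changes whose samples did not overlap (symbols ending in Rik counted only), up to 4 called members of each of 46 gene lists or the one with the smallest p, Mt1, Mt2 and 11 genes named by the study. Other genes were named after their values were seen. The members and lists were chosen with earlier results of these data known. Alternatives covered background correction, normalization, dim probes, probe choice, the deposited table, batch terms, pairing, the samples fitted and leaving out each sample.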

Additional observations from a re-analysis of the deposited data

Results flagged for a closer look

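Among 78 named genes, 6 had a PBS control sample that stood apart from the other 6 by Dixon's test, which flags about 1 in 20 groups by chance. PBS replicate 1 had Hmox1 at 8.17, where the others lay between 9.89 and 10.83. PBS replicate 4 had Saa1 at 9.41 (others 8.18 to 8.59) and Mt2 at 12.14 (others 11.23 to 11.60). PBS replicate 6 was low in Muc5b at 9.52 (others 10.23 to 10.73), Spaca9 at 10.11 (others 10.33 to 10.48) and AU040972 at 8.01 (others 8.28 to 8.41). Without PBS replicate 6 the comparison of CuO PEG 40 with CuO 10 called 37 genes, without replicate 4 it called 21 and without replicate 1 it called 32. Of 23611 probes that match no named gene, which the comparisons by gene leave out, 1 was called between CuO PEG 40 and CuO 10 when all 56605 probes were fitted: A_30_P01026518, lower by a log2 fold change of -1.16 (SE 0.22, limma adjusted p = 0.0454).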

How the results depend on the processing

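The 29 genes called between CuO PEG 40 and CuO 10 kept their sign in every alternative run (0 of 1015 values turned). They were chosen by their difference in these same samples, which the runs share, and this in part fixes the signs. The signs of other genes were not counted. The number called depended on the setting, and 327 of 609 values stayed called when 1 sample was left out. The count was 910 with ComBat for dye and array (313 higher, 597 lower). With dye alone, which leaves the slide sets uncorrected, it was 802 (287 higher, 515 lower). It was 0 with dye and hybridisation, with the replicate block and with own-slide controls. The cause was not tested. It stayed at 23 to 42 under the other alternatives. Dnajb1 had adjusted p of 0.884, 0.168 and 0.160 in the 3 alternatives with 0 calls. Deviations of same-numbered samples had correlations of 0.23, -0.07 and 0.16 for numbers 1 to 3. With 3 samples per group and slide effects already removed, these values cannot decide whether the replicate numbers pair the samples. The replicate block also took CuO PEG 40 versus PBS to 13 genes. In OVA-challenged mice the count was 722 with ComBat, 757 with dye alone, 7 with loess and Aquantile, 2 with dye by slide set (chosen after seeing the data, since Cy5 was dim on slides 4 to 6), and 0 with dye and hybridisation, with dye and slide set, with own-slide controls and with the replicate block. In the fit of OVA-challenged samples with the PBS controls it was 1, a gene that was higher in CuO PEG 40 + OVA. ComBat gave 1295 genes for the difference between challenges and 1921 for CuO 10 versus PBS. Ccl11 turned to -0.20 with dye alone and Saa3 to 0.092 with own-slide controls. Leaving out 1 sample gave 1 to 100 genes for the main comparison, 0 to 7 in OVA-challenged mice, 0 for the difference between challenges, 697 to 1061 for CuO 10 versus PBS and 620 to 791 for CuO PEG 40 versus PBS. The main count was 100 without CuO 10 replicate 1, 1 and 3 without replicates 2 and 3, 5, 3 and 2 without CuO PEG 40 replicates 1, 2 and 3, 14 and 19 without PBS replicates 3 and 7, 19, 6, 6, 3 and 19 without OVA replicates 2, 3, 4, 6 and 7. The 2 samples left in a group are assumed to vary like the other groups. The dimmer slides 4 to 6 limit what can be seen of weak genes in CuO PEG 40.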
